A study of Mus musculus with 14 samples.

Results

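The 10 genes around the insulin receptor and the FOXO transcription factors were followed through mTOR inhibition in mouse embryonic stem (ES) cells. They are the FOXO factors *Foxo1*, *Foxo3* and *Foxo4*, the receptors *Insr* and *Igf1r*, the receptor substrates *Irs1* and *Irs2*, the phosphoinositide 3-kinase (PI3K) inhibitor *Pik3ip1*, and *Klhl24* and *Crebrf*. They are 10 of the 54446 gene identifiers in the files, and all 10 were among the 18232 genes that passed the filter on low values. The genes were chosen by name, with earlier results of these libraries known, and *Klhl24* and *Crebrf* were selected on their higher level at every mTORi time in wild-type cells. Changes of the 10 genes against 0 h in wild-type cells are therefore given as a description, without p-values.

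The cells were E14 ES cells grown in serum and LIF without feeder cells. Wild-type cells (WT) were sampled untreated at 0 h and after 24, 72 and 144 h with INK128, an inhibitor of the mTOR kinase (mTORi). *Tet1/2* double-knockout cells (DKO), of the same background, were collected untreated and after 24 and 72 h of mTORi. The knockout was made with Cas9 in cells that were then sorted singly and grown as clones, so that the DKO groups stand for one cell line and not for several independent knockouts. Each of the 7 groups had 2 replicates, giving 14 libraries of bulk RNA sequencing. RNA was taken from a fixed number of sorted cells, the libraries were made from a fixed mass of that RNA, and ERCC spike-in RNAs were used, added at a step not given in the sources used here.

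Insulin and the insulin-like growth factors bind the receptors encoded by *Insr* and *Igf1r*, which phosphorylate the docking proteins IRS1 and IRS2. These recruit PI3K, which activates the kinase AKT upstream of mTOR. AKT phosphorylates FOXO proteins and holds them in the cytoplasm, and when AKT activity falls the FOXO proteins enter the nucleus and activate their targets. mTORC1 in turn feeds back on the receptor end of the pathway, in part through the substrates and the adaptor GRB10. PIK3IP1 is a membrane protein that restrains PI3K, KLHL24 is a kelch-like adaptor of a CUL3 ubiquitin ligase, and CREBRF is a regulator of the transcription factor CREB3.

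RefSeq promoter windows (GRCm38.p6, the assembly of mm10) of 300 bases, which reach from upstream of the annotated start into the transcript, were at hand for 7 of the 10 genes, all but *Klhl24*, *Insr* and *Foxo4*. Both strands were searched for the FOXO core GTAAACA and for the E-box with a flanking base TCACGTG, the kind of site bound by TFE3 and related factors that act downstream of mTORC1. These motifs were chosen after the sequences had been seen. The FOXO core occurred in 3.65% of all 32851 promoters and in 0 of the 7. The flanked E-box occurred in 3.77% of all promoters and in 3 of the 7, those of *Crebrf*, *Irs1* and *Irs2*, which are shown because they hold the match. Capitals mark the flanked E-box, and overlapping matches on opposite strands are joined.
Crebrf, chr17:26715400-26715699, plus strand: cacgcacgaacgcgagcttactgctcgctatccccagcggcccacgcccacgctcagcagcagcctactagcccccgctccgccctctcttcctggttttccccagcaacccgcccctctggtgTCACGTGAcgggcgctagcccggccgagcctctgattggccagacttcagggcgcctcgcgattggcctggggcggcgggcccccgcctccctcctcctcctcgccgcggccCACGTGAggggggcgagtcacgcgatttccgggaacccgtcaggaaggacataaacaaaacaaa
Irs1, chr1:82291390-82291689, minus strand: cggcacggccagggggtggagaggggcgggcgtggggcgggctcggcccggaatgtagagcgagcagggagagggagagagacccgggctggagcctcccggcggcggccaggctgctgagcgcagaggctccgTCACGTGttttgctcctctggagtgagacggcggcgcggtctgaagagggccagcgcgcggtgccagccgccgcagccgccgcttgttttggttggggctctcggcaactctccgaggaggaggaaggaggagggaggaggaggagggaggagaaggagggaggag
Irs2, chr8:11008880-11009179, minus strand: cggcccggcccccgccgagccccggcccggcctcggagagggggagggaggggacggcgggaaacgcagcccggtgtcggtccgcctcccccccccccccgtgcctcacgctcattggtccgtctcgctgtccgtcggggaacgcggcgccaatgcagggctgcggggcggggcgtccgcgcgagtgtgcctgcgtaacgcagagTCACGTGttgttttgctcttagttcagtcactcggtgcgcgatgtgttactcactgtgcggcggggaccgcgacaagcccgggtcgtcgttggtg
Counted from the RefSeq start as 0, the first base of the matches lay at -126 and -14 in *Crebrf*, at -116 in *Irs1* and at -45 in *Irs2*. The *Irs2* start lies upstream of the gene model in the files (chromosome 8, 10984681 to 11008458). A match describes the letters in these windows and does not show that a factor bound there.

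The deposited values are TPM, which give a gene's share of the RNA in a library. Multiplied by the library's spike-in factor, they give spike-in normalized TPM, which also follow the amount of RNA per cell where the spike-ins were added in proportion to cells. A change shared by all genes leaves TPM as they are, so both scales are given. In bulk libraries, fewer cells holding a transcript and less of it per cell cannot be told apart. On the log2(TPM + 1) scale, the median of all genes tested shifted by -0.33, -0.33 and -0.83 at 24, 72 and 144 h in WT and by -0.49 and -0.12 at 24 and 72 h in DKO on the spike-in normalized scale, and by at most 0.14 on the deposited scale. The factors ran from 1 to 2.81. They were equal in both WT 0 h libraries and differed within the other groups, most at DKO 24 h, with 2.24 in replicate 1 and 1.36 in replicate 2. *Tet2* was at 96.0 to 143 deposited TPM in WT and at 15.9 to 22.2 in DKO. *Tet1* ranged from 191 to 349 in WT and from 147 to 248 in DKO, and these ranges overlapped. TPM of a whole gene do not tell which exons were read. The study reports that the knockouts were verified by western blot with antibodies to TET1 and TET2. The sum of 6 ES cell markers lay between 2354 and 2781 deposited TPM in all libraries but those of DKO 72 h, where it was 2100 and 2188, whereas 5 primitive endoderm markers summed to 60.8 and 113 at WT 24 h against 5.27 to 47.5 elsewhere. In DKO, 4 fibroblast markers summed to 10.5 and 17.6 at 0 h and to 2.68 to 7.39 in the treated libraries, with *Dcn* at 0 in the latter, and 5 trophectoderm markers summed to 20.6 to 58.5 at 0 and 24 h and to 15.4 and 17.4 at 72 h. In WT the fibroblast markers summed to 5.71 and 8.26 at 0 h, 1.29 and 2.78 at 24 h, and 3.19 to 5.78 later. The trophectoderm markers summed in WT to 25.2 to 57.5 at 0 and 24 h, and to 14.2 to 22.4 at 72 and 144 h. The 4 mesendoderm markers summed to at most 8.31 and the 4 neural markers to at most 11.3 in any library. The part of these markers in the changes of the 10 genes was not tested.

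*Klhl24* and *Crebrf* had nearly the same profile in all 14 libraries. In WT, *Klhl24* (chromosome 16, 20097542 to 20129221) measured 22.1 and 30.4 spike-in normalized TPM at 0 h, 82.4 and 121 at 24 h, 83.9 and 81.6 at 72 h, then 57.3 and 59.2 at 144 h. *Crebrf* (chromosome 17, 26715650 to 26776635) measured 14.9 and 19.5 at 0 h, 55.0 and 81.8 at 24 h, 57.9 and 57.3 at 72 h, then 36.5 and 34.9 at 144 h. Every treated library was above both untreated ones for both genes, as the choice of the genes required. The ratios of the group means to 0 h were 3.86, 3.15 and 2.21 for *Klhl24* and 3.98, 3.35 and 2.08 for *Crebrf*. On the deposited scale these ratios were 4.92, 4.24 and 4.52 for *Klhl24* and 5.06, 4.51 and 4.24 for *Crebrf*. With the spike-in factors both genes declined between 24 and 144 h. In deposited TPM *Crebrf* was also lower, at 38.3 and 44.1 at 24 h and at 34.1 and 34.9 at 144 h. *Klhl24* overlapped there, at 57.5 and 65.1 at 24 h and at 53.5 and 59.2 at 144 h. The mean share of both transcripts among all RNA stayed above 4 times its 0 h value.

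The DKO libraries were not part of the choice of these genes and were tested. *Klhl24* measured 32.9 and 26.4 spike-in normalized TPM at DKO 0 h, 105 and 60.8 at 24 h, then 106 and 74.6 at 72 h. *Crebrf* measured 18.3 and 15.9 at DKO 0 h, 68.7 and 43.0 at 24 h, then 70.3 and 51.2 at 72 h. The treated libraries were above both untreated ones for both genes. *Klhl24* rose by 1.41 ± 0.31 (log2, SE, n = 2 per group) at 24 h (limma adjusted p = 0.0048) and by 1.56 ± 0.31 at 72 h (adjusted p = 0.0083). *Crebrf* rose by 1.62 ± 0.31 at 24 h (adjusted p = 0.0018) and by 1.76 ± 0.31 at 72 h (adjusted p = 0.0030). On the deposited scale the rises were 1.92 ± 0.13 and 1.81 ± 0.13 for *Klhl24* and 2.09 ± 0.12 and 1.97 ± 0.12 for *Crebrf*. Neither gene passed at 24 h when only the DKO 0 and 24 h libraries were fitted, which leaves 2 residual degrees of freedom. At 72 h *Klhl24* no longer passed without DKO 0 h replicate 2, where its fold change was 1.40, or without DKO 72 h replicate 1, where it was 1.31. In WT the corresponding values were 1.90 ± 0.31, 1.63 ± 0.31 and 1.13 ± 0.31 for *Klhl24* and 1.92 ± 0.31, 1.70 ± 0.31 and 1.03 ± 0.31 for *Crebrf* at 24, 72 and 144 h.

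**Figure D1:**
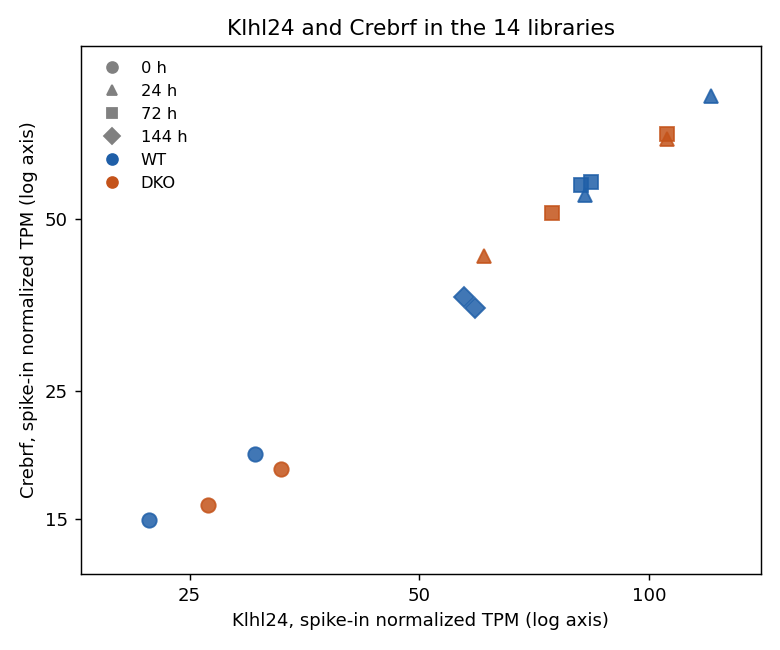
Level of *Klhl24* (x axis) against *Crebrf* (y axis) in spike-in normalized TPM on log axes, 1 point per library, with colour for genotype and shape for time. The 4 untreated libraries lie at 22.1 to 32.9 for *Klhl24* and 14.9 to 19.5 for *Crebrf*, apart from the 10 treated libraries, and WT 144 h lies lowest among the latter.

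Among all genes tested that span at least 200 bp, the one most like *Klhl24* over the 14 libraries was *Crebrf*, and the one most like *Crebrf* was *Klhl24* (Pearson r = 0.995 of log2 spike-in normalized TPM + 1). Both genes were chosen for their rise in the WT libraries, which are among the 14. The libraries also share the 7 conditions and the spike-in factors, which enter both genes, so the ranks and the correlation are a description. With deposited TPM, which hold no such factor but the same choice of genes, r was 0.997 and each gene was again first for the other. Over the 7 group means r was 0.997, and for *Crebrf* the butyrophilin-like pseudogene *Btnl7-ps* then came ahead of *Klhl24*. *Btnl7-ps* was the next most alike of both (r = 0.982 with *Klhl24* and 0.988 with *Crebrf*), followed by the HMG-box repressor gene *Hbp1* for *Klhl24* (r = 0.965) and the centrosomal protein gene *Cep112* for *Crebrf* (r = 0.963). Within a library the ratio of *Klhl24* to *Crebrf* TPM stayed between 1.41 and 1.80. Of the other members, *Irs1* and *Irs2* were closest to *Klhl24* (r = 0.829 and 0.818), and *Foxo4* was the one with a negative value (r = -0.518).

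**Figure D2:**
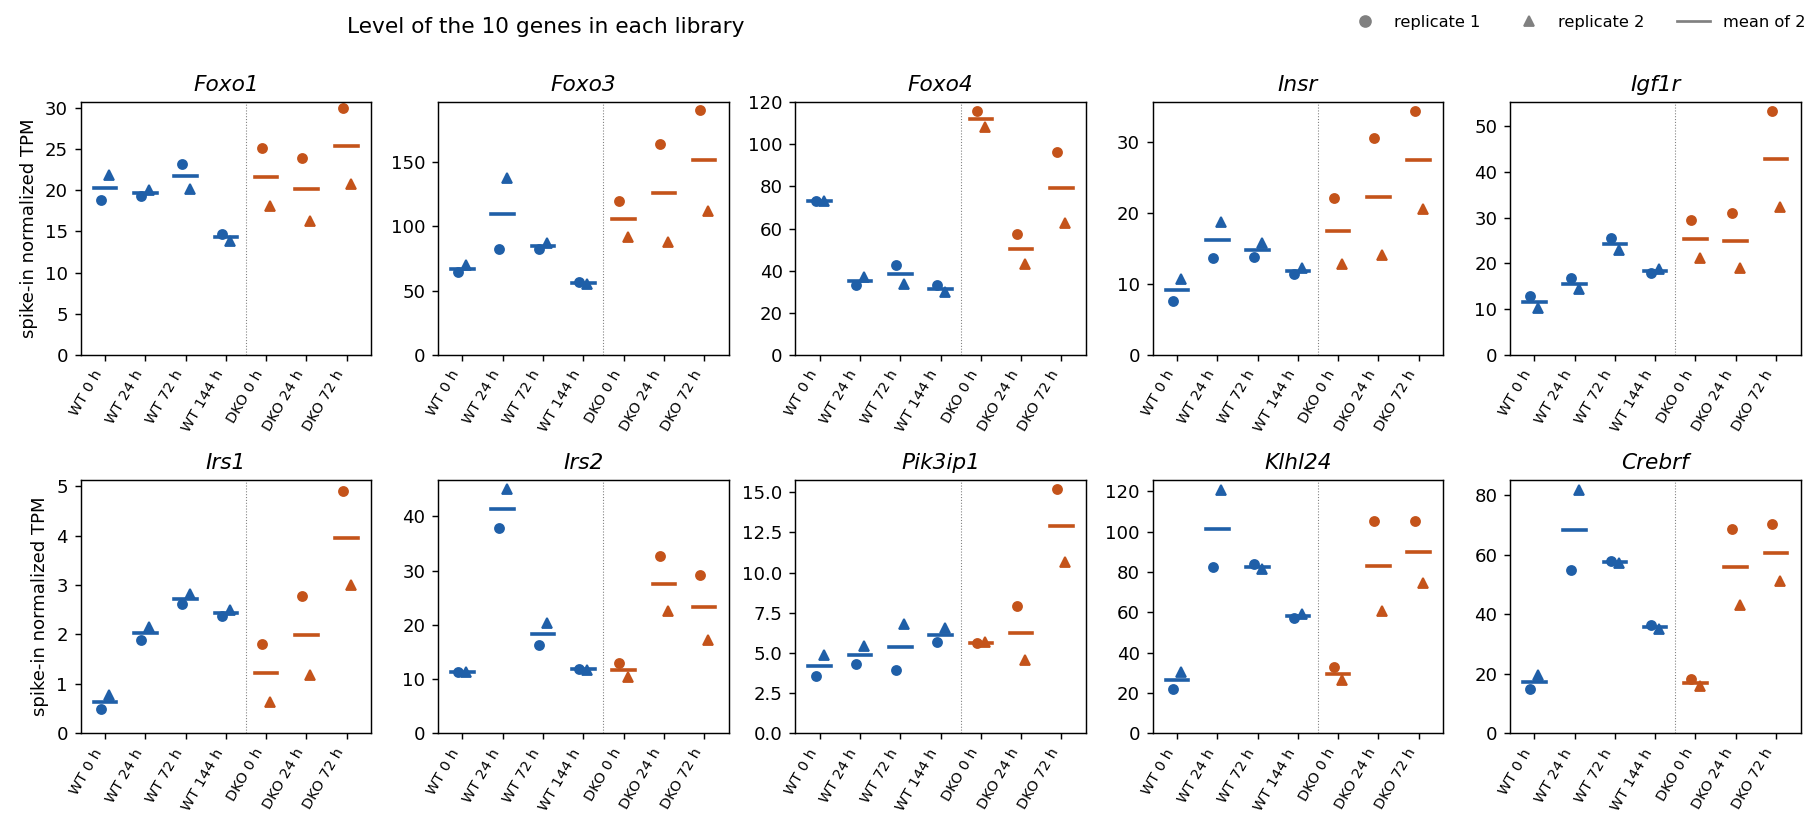
Spike-in normalized TPM (y axis, from 0) of the 10 genes in the 7 groups (x axis), with replicate 1 as circles, replicate 2 as triangles and lines at the mean of 2, WT in blue and DKO in orange. *Klhl24* and *Crebrf* stand higher in all treated groups, *Irs2* peaks at WT 24 h with 37.9 and 44.9, and *Foxo4* stands lower after treatment.

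The 3 FOXO genes did not move together. *Foxo4* (X chromosome, 101254528 to 101260873) measured 73.1 and 73.1 spike-in normalized TPM at WT 0 h, 33.2 and 36.8 at 24 h, 42.7 and 33.9 at 72 h, then 33.0 and 30.0 at 144 h. The treated libraries were all below the untreated ones, and the fold changes were -1.04 ± 0.28, -0.92 ± 0.28 and -1.19 ± 0.28. In deposited TPM the lower share of *Foxo4* was largest at 24 h (-0.67 ± 0.12) and was -0.18 ± 0.12 at 144 h. In DKO, *Foxo4* measured 116 and 108 at 0 h, 57.3 and 43.1 at 24 h, then 96.2 and 62.6 at 72 h. It fell by 1.16 ± 0.28 (log2) at 24 h (adjusted p = 0.0085), also in deposited TPM (-0.59 ± 0.12, adjusted p = 0.0054). This call was lost without DKO 0 h replicate 1 (-1.11) and without DKO 24 h replicate 2 (-0.96). At 72 h its fold change of -0.52 ± 0.28 did not pass (adjusted p = 0.31).

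*Foxo3* (chromosome 10, 42181841 to 42276755) measured 64.4 and 69.8 spike-in normalized TPM at WT 0 h, 82.1 and 137 at 24 h, 82.5 and 87.4 at 72 h, then 56.8 and 54.8 at 144 h. Its fold changes in WT were 0.66 ± 0.33, 0.34 ± 0.33 and -0.26 ± 0.33, the last being 0.75 ± 0.14 in deposited TPM, so that the direction at 144 h depended on the scale. In DKO, *Foxo3* measured 120 and 92.0 at 0 h, 164 and 87.4 at 24 h, then 190 and 112 at 72 h, with overlap between treated and untreated libraries. Its fold changes of 0.19 ± 0.33 and 0.47 ± 0.33 did not pass on the spike-in normalized scale, whereas its deposited TPM rose by 0.75 ± 0.14 (adjusted p = 0.0032) and 0.77 ± 0.14 (adjusted p = 0.0034). *Foxo1* (chromosome 3, 52268336 to 52353221) ranged from 18.8 to 23.2 spike-in normalized TPM at WT 0, 24 and 72 h and measured 14.7 and 13.9 at 144 h. Its change at WT 144 h was -0.48 ± 0.31 with the factors and 0.48 ± 0.13 without them. In DKO it changed by -0.10 ± 0.31 and 0.22 ± 0.31, which did not pass, and in deposited TPM it rose by 0.42 ± 0.13 (adjusted p = 0.041) and 0.49 ± 0.13 (adjusted p = 0.022).

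The share of each FOXO gene in the summed TPM of the 3 does not depend on the spike-in factor. *Foxo3* held 41.2% and 42.3% of the sum at WT 0 h, 61.0% and 70.8% at 24 h, 55.6% and 61.8% at 72 h, then 54.3% and 55.5% at 144 h. In DKO it held 45.9% and 42.1% at 0 h, 66.9% and 59.6% at 24 h, then 60.1% and 57.4% at 72 h. *Foxo4* held between 44.4% and 49.6% in the 4 untreated libraries and between 18.9% and 32.0% in the 10 treated ones. *Foxo4* was thus about level with *Foxo3* before treatment, and *Foxo3* was the most abundant of the 3 in all treated libraries, at 1.72 to 3.73 times *Foxo4*. *Foxo1* was the lowest of the 3 in every library, at 8.28% to 15.6%. The shares were not tested, and with 2 libraries per group a permutation test of a single comparison could not pass.

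**Figure D3:**
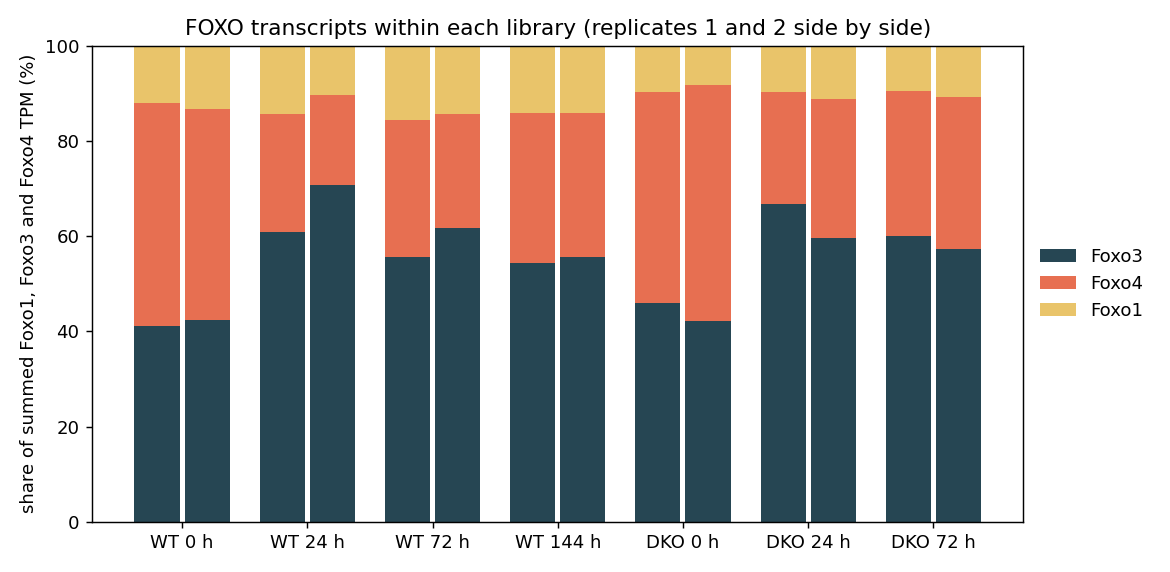
Share of *Foxo3*, *Foxo4* and *Foxo1* in their summed TPM (y axis, %) in each of the 14 libraries, with the 2 replicates of a group side by side (x axis). The *Foxo3* segment is between 41.2% and 45.9% in untreated and between 54.3% and 70.8% in treated libraries of both genotypes.

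The 2 receptor genes were low to moderate and were higher in the treated WT libraries. *Igf1r* (chromosome 7, 67952827 to 68233668) measured 12.9 and 10.2 spike-in normalized TPM at WT 0 h, 16.7 and 14.4 at 24 h, 25.6 and 22.8 at 72 h, then 17.9 and 18.8 at 144 h. *Insr* (chromosome 8, 3122061 to 3279617) measured 7.62 and 10.7 at WT 0 h, 13.6 and 18.8 at 24 h, 13.8 and 15.8 at 72 h, then 11.5 and 12.3 at 144 h. No treated library overlapped the untreated ones for either gene. The fold changes were 0.41, 1.01 and 0.64 (SE 0.33) for *Igf1r* and 0.76, 0.65 and 0.36 (SE 0.38) for *Insr*. In deposited TPM both differed most at 144 h, by 1.54 ± 0.17 for *Igf1r* and 1.24 ± 0.20 for *Insr*.

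In DKO, *Igf1r* measured 29.6 and 21.2 at 0 h, 30.9 and 19.0 at 24 h, then 53.2 and 32.3 at 72 h. The 24 h libraries overlapped those at 0 h, and those at 72 h were above them. The fold changes were -0.05 ± 0.33 at 24 h (0.48 ± 0.17 in deposited TPM, adjusted p = 0.066) and 0.70 ± 0.33 at 72 h (adjusted p = 0.24), and the latter passed with a replicate block (adjusted p = 0.028) and in deposited TPM (0.96 ± 0.17, adjusted p = 0.0037). *Insr* measured 22.1 and 12.9 at DKO 0 h, 30.6 and 14.1 at 24 h, then 34.4 and 20.6 at 72 h. The groups overlapped, and within each replicate number the level was higher at each step. Its fold changes of 0.28 ± 0.38 and 0.63 ± 0.38 did not pass (adjusted p = 0.39 at 72 h, and 0.056 with a replicate block), while its deposited TPM rose by 0.78 ± 0.20 (adjusted p = 0.020) and 0.86 ± 0.20 (adjusted p = 0.013).

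*Irs2* (chromosome 8, 10984681 to 11008458) had its highest levels at 24 h. It measured 11.3 and 11.3 spike-in normalized TPM at WT 0 h, 37.9 and 44.9 at 24 h, 16.3 and 20.3 at 72 h, then 11.8 and 11.8 at 144 h. Against its 0 h mean it was 3.67, 1.62 and 1.05 times as high at 24, 72 and 144 h, and 4.74, 2.20 and 2.13 times in deposited TPM, so that its return to the 0 h level was seen on the spike-in normalized scale and not on the deposited one. The WT 24 h libraries also had the highest sums of primitive endoderm markers, whose part in the *Irs2* level was not tested. From 24 to 72 h *Irs2* changed by -1.14 ± 0.32 (log2) in WT, which did not pass (adjusted p = 0.104) and did with a replicate block (adjusted p = 0.0032). This step was compared after its values had been seen and shares the wild-type libraries used in choosing the genes. Across all genes 0.559% were called lower in this step and 5.70% in deposited TPM, where *Irs2* passed at -1.06 ± 0.15 (adjusted p = 0.0032). In DKO, *Irs2* measured 12.9 and 10.4 at 0 h, 32.6 and 22.5 at 24 h, then 29.2 and 17.2 at 72 h, and the treated libraries were above the untreated ones. It rose by 1.16 ± 0.32 at 24 h (adjusted p = 0.018) and differed by 0.90 ± 0.32 at 72 h (adjusted p = 0.12, and 0.0089 with a replicate block). The 24 h call was lost without DKO 0 h replicate 1 (1.31) and without DKO 0 h replicate 2 (1.01). In deposited TPM both rises passed, at 1.60 ± 0.15 and 1.10 ± 0.15.

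*Irs1* (chromosome 1, 82233101 to 82291416) was the least abundant of the 10 genes in every group. It measured 0.49 and 0.77 spike-in normalized TPM at WT 0 h, 1.89 and 2.16 at 24 h, 2.62 and 2.82 at 72 h, then 2.37 and 2.49 at 144 h. Its treated levels were 3.21, 4.31 and 3.85 times the 0 h mean, and 4.16, 5.82 and 7.86 times in deposited TPM, while the log2 fold changes of TPM + 1, which understate the change of a gene this low, were 0.90, 1.19 and 1.08 (SE 0.37). In DKO, *Irs1* measured 1.81 and 0.63 at 0 h, 2.79 and 1.19 at 24 h, then 4.90 and 3.0 at 72 h. The 24 h libraries overlapped those at 0 h (0.43 ± 0.37), and the 72 h libraries were above them (1.18 ± 0.37, adjusted p = 0.079, and 0.0040 with a replicate block). In deposited TPM the 72 h rise passed at 0.97 ± 0.17 (adjusted p = 0.0032). Within a library *Irs2* was 14.7 to 22.9 times *Irs1* at WT 0 h, 20.0 and 20.8 times at 24 h, and 4.73 to 7.19 times at 72 and 144 h. In DKO the ratio was 7.14 and 16.3 at 0 h, 11.7 and 19.0 at 24 h, then 5.95 and 5.74 at 72 h.

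*Pik3ip1* (chromosome 11, 3330401 to 3342971) measured 3.56 and 4.84 spike-in normalized TPM at WT 0 h, 4.31 and 5.42 at 24 h, 3.96 and 6.80 at 72 h, then 5.67 and 6.57 at 144 h. The groups overlapped until 72 h, and the fold change at 144 h was 0.46 ± 0.36 (1.21 ± 0.22 in deposited TPM). In DKO it measured 5.60 and 5.69 at 0 h, 7.93 and 4.57 at 24 h, then 15.2 and 10.6 at 72 h. The 72 h libraries were above all others, with a fold change of 1.04 ± 0.36 (adjusted p = 0.11, and 0.0082 with a replicate block) that passed in deposited TPM (1.15 ± 0.22, adjusted p = 0.0048). Transcripts of other genes overlap the loci of *Foxo1*, *Insr*, *Irs1*, *Irs2* and *Pik3ip1*, and whether the counting used strand was not given in the sources used here, so part of their values may belong to these neighbours.

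**Figure D4:**
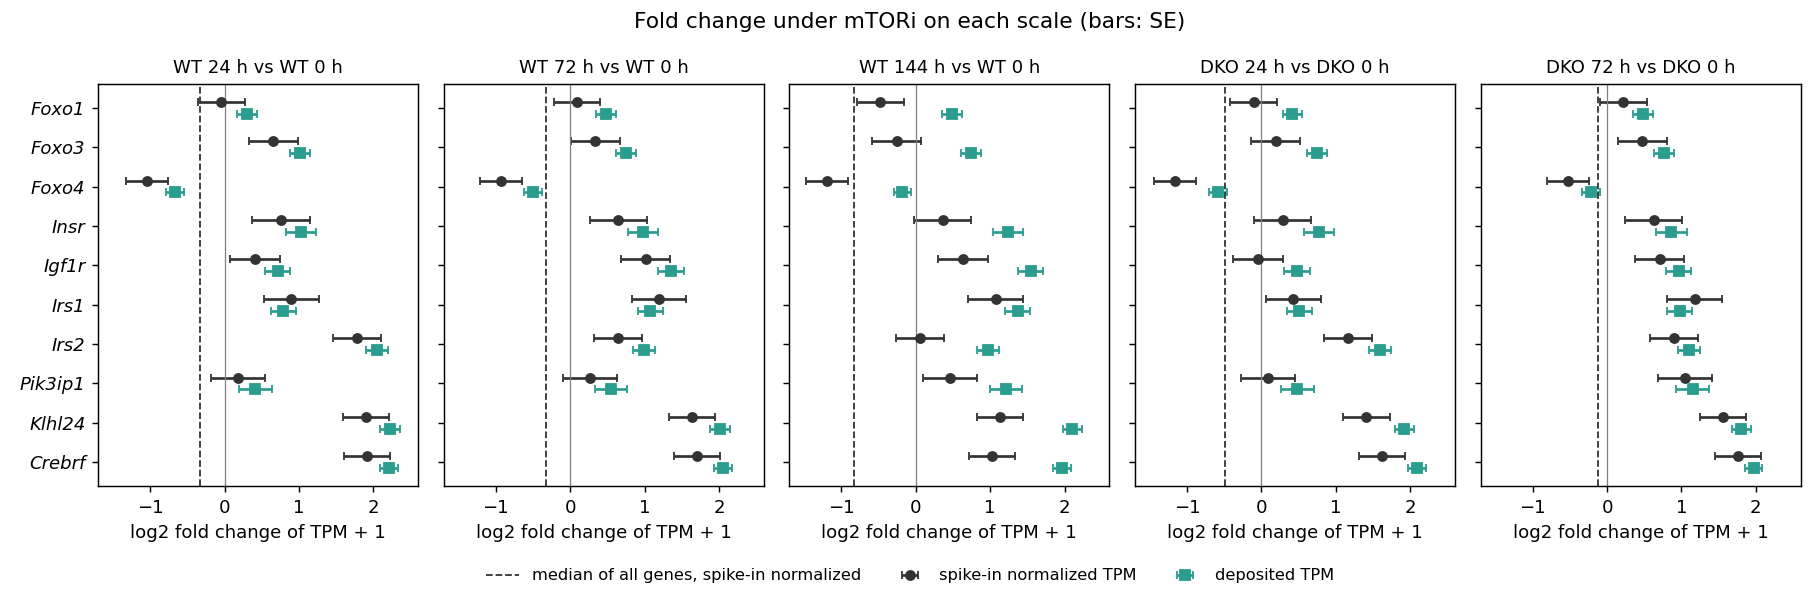
Log2 fold change of TPM + 1 (x axis, bars ± SE) of the 10 genes at each mTORi time against 0 h of the same genotype, with spike-in normalized TPM as circles, deposited TPM as squares and the median of all genes tested (spike-in normalized) as a dashed line. Among the circles, *Foxo4* alone lies below the dashed line in each panel, and *Foxo1* and *Foxo3* change sign between the scales at WT 144 h.

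Over the 10 genes, DKO at 24 h gave 3 calls higher (*Irs2*, *Klhl24* and *Crebrf*), where 0.505% of all genes were called higher, and 1 lower (*Foxo4*), where 18.7% were called lower. All 4 calls were lost when only the groups compared were fitted. At 72 h 2 genes (*Klhl24* and *Crebrf*) were called higher against 0.713% of all genes and 0 lower against 2.95%. With a block on the replicate number within each genotype, 6 genes were called higher at DKO 72 h (*Igf1r*, *Irs1*, *Irs2* and *Pik3ip1* in addition), against 5.34% of all genes. In deposited TPM 6 of 10 were called higher and 1 lower at DKO 24 h, against 11.6% and 13.3% of all genes. At 72 h 9 were called higher and 0 lower, against 17.2% and 9.06%. The one not called higher was *Foxo4*, at -0.22 ± 0.12. The median fold change of the 10 genes in DKO was 0.24 at 24 h and 0.80 at 72 h, beside medians of all genes of -0.49 and -0.12. In WT nothing is read from the counts. There 3 of the 10 were called higher at each of 24, 72 and 144 h (1.25%, 0.697% and 0.461% of all genes), of which *Klhl24* and *Crebrf* were fixed by their choice, and *Foxo4* was called lower at each time (8.73%, 7.60% and 50.5%).

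DKO and WT cells were compared at the same time to ask whether these genes depended on the genotype. None of the 10 genes was called by limma at 0, 24 or 72 h, where 0.0439%, 0.0439% and 0.329% of all genes were called, and 3, 0 and 5 of the 10 had an unadjusted p under 0.05, as had 8.35%, 4.14% and 23.0% of all genes. In deposited TPM the calls were 0, 0 and 1 (0.598%, 1.37% and 4.01% of all genes), and 4, 5 and 5 had such a p (13.9%, 14.8% and 21.2% of all genes). The comparison uses the wild-type libraries on which *Klhl24* and *Crebrf* were chosen. *Klhl24* differed by 0.18, -0.31 and 0.10 (SE 0.31) and *Crebrf* by -0.00, -0.30 and 0.06 (SE 0.31), and in deposited TPM *Klhl24* differed by -0.10, -0.40 and -0.31 (SE 0.13) and *Crebrf* by -0.26, -0.39 and -0.34 (SE 0.12), so that the sign of *Klhl24* at 0 and 72 h and of *Crebrf* at 72 h depended on the scale. *Foxo4* was higher in both DKO libraries than in both WT libraries at each time, by 0.61, 0.50 and 1.01 (SE 0.28), beside medians of all genes of 0.29, 0.10 and 0.49. In deposited TPM its difference at 72 h was 0.59 ± 0.12 (adjusted p = 0.029), the one call among the 10. *Igf1r* was likewise higher in both DKO libraries at each time, by 1.06, 0.61 and 0.75 (SE 0.33), and *Pik3ip1* was higher in both at 72 h, by 1.14 ± 0.36, and neither passed. In the other direction, *Irs2* was lower in both DKO libraries at 24 h, with a difference of -0.59 ± 0.32. In deposited TPM this was -0.67 ± 0.15 (limma adjusted p = 0.057), and it passed on neither scale. The difference between the DKO and WT responses, which contains the contrast used in choosing the genes, is given as values without a test. For *Klhl24* it was -0.49 ± 0.44 at 24 h and -0.08 ± 0.44 at 72 h, for *Crebrf* -0.30 ± 0.44 and 0.06 ± 0.44, for *Irs2* -0.62 ± 0.46 and 0.25 ± 0.46, for *Foxo4* -0.11 ± 0.40 and 0.40 ± 0.40, and for *Pik3ip1* -0.09 ± 0.51 and 0.78 ± 0.51.

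Around these genes, 94 genes of the pathway were followed in 6 lists, of which 79 passed the filter. Over the lists 2 were called higher and 44 lower at WT 144 h (all genes, 0.461% and 50.5%), and 21 and 16 in deposited TPM (15.6% and 11.7%). At DKO 72 h 1 was called higher and 2 lower (0.713% and 2.95%), and 17 and 13 in deposited TPM (17.2% and 9.06%). Blocking on the replicate number gave 4 higher and 20 lower at DKO 72 h (5.34% and 13.2%). Among the ligands and binding proteins (6 of 13 tested), 0 were called higher and 4 lower at WT 144 h, and 0 and 1 at DKO 72 h. In deposited TPM these were 1 and 1 at WT 144 h, and 0 and 0 at DKO 72 h. The replicate block gave 0 and 3 at DKO 72 h. *Igf2*, a ligand of the IGF1 receptor, measured 7.21 and 11.6 spike-in normalized TPM at WT 0 h (lowest and highest library), 13.9 and 16.7 at 24 h, and 0.43 and 0.50 at 144 h. Its change of 0.68 ± 0.35 at WT 24 h did not pass, and at 144 h it fell by 2.80 ± 0.35 (adjusted p = 2.5e-05), also in deposited TPM (-1.89 ± 0.34). The binding protein gene *Igfbp7* fell by 1.41 ± 0.37 at WT 144 h, and *Igfbp2* fell by 1.09 ± 0.29 at DKO 72 h (adjusted p = 0.041). In deposited TPM these were -0.54 ± 0.32 and -0.79 ± 0.27 and did not pass.

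Of the receptor adaptors (9 of 12 tested), 0 were called higher and 7 lower at WT 144 h, and 0 and 1 at DKO 72 h. In deposited TPM these were 0 and 4 at WT 144 h (all genes, 15.6% and 11.7%). At DKO 72 h they were 0 and 4 (17.2% and 9.06%), and 0 and 3 with the replicate block (5.34% and 13.2%). *Grb10*, which encodes an adaptor that binds and dampens both receptors, fell in all 5 comparisons with 0 h on both scales. It ranged from 86.9 to 103 spike-in normalized TPM at WT 0 h and from 14.4 to 36.3 in the treated WT libraries, and from 31.9 to 34.3 at DKO 0 h and from 5.90 to 11.2 in the treated DKO libraries. Its fold changes were -1.73, -1.87 and -2.33 in WT and -1.95 and -1.57 in DKO (SE 0.35), and -1.20 to -1.42 in deposited TPM. The docking protein gene *Gab1* fell by 1.41 ± 0.26 at WT 144 h (-0.39 ± 0.11 in deposited TPM, adjusted p = 0.028). Of the PI3K and AKT genes (19 of 20 tested), 0 were called higher and 10 lower at WT 144 h and 0 at DKO 72 h. In deposited TPM 5 were called higher and 2 lower at WT 144 h, and 4 and 1 at DKO 72 h. The replicate block gave 0 and 4 at DKO 72 h. *Pik3r3*, a regulatory subunit of PI3K, fell by 1.88 ± 0.38 and *Akt1* by 1.60 ± 0.38 at WT 144 h, and in deposited TPM *Pik3r3* passed (-0.97 ± 0.16) and *Akt1* did not (-0.60 ± 0.25).

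Of the FOXO partners and regulators (17 of 17 tested), 0 were called higher and 13 lower at WT 144 h and 0 at DKO 72 h. In deposited TPM 3 were called higher and 7 lower at WT 144 h (all genes, 15.6% and 11.7%). At DKO 72 h these were 3 and 5 (17.2% and 9.06%), and 0 and 6 with the replicate block (5.34% and 13.2%). *Ywhab*, a 14-3-3 protein that binds phosphorylated FOXO, fell by 1.80 ± 0.29 and *Mdm2*, a ubiquitin ligase, by 1.75 ± 0.36 at WT 144 h, and both passed in deposited TPM (-0.78 ± 0.07 and -0.73 ± 0.23). Of the FOXO target genes (23 of 27 tested), 2 were called higher and 6 lower at WT 144 h, and 1 and 0 at DKO 72 h. Their median fold changes at 24, 72 and 144 h in WT were -0.08, -0.05 and -0.37, beside -0.33, -0.33 and -0.83 for all genes. In DKO at 24 and 72 h they were -0.50 and -0.04, beside -0.49 and -0.12. In deposited TPM the medians were 0.24, 0.33 and 0.62 in WT, beside -0.01, 0.04 and 0.05, and 0.03 and 0.25 in DKO, beside 0.01 and 0.14. At WT 144 h 12 were then called higher and 1 lower, against 15.6% and 11.7% of all genes. At DKO 72 h these were 8 and 2, against 17.2% and 9.06%. *Fbxo32*, a muscle atrophy ubiquitin ligase, rose by 1.02 ± 0.33 (adjusted p = 0.017) and *Ccng2*, an inhibitory cyclin, by 0.97 ± 0.37 (adjusted p = 0.037) at WT 144 h. The antioxidant genes *Sod2* and *Cat* fell by 1.45 ± 0.33 and 1.44 ± 0.30, and in deposited TPM *Cat* passed (-0.44 ± 0.13) and *Sod2* did not (-0.43 ± 0.17). *Hbp1* rose at DKO 72 h by 1.23 ± 0.33 (adjusted p = 0.044), from 64.3 and 87.7 to 146 and 214 spike-in normalized TPM. The calls of *Fbxo32* and *Ccng2* at WT 144 h and of *Hbp1*, *Grb10* and *Igfbp2* at DKO 72 h were lost when any 1 of the 4 libraries compared was left out, with fold changes of 0.95 to 1.09, 0.73 to 1.20, 0.95 to 1.5, -1.66 to -1.49 and -1.34 to -0.85 in turn. Without WT 0 h replicate 2 the calls of *Akt1* (-1.16) and *Cul3* (-1.12) at WT 144 h were lost, and that of *Igfbp7* without WT 0 h replicate 1 (-0.84) or WT 144 h replicate 2 (-1.31). Of the partners of KLHL24 and CREBRF (5 of 5 tested), 0 were called higher and 4 lower at WT 144 h and 0 at DKO 72 h. In deposited TPM 0 were called higher and 1 lower at WT 144 h, and 2 and 1 at DKO 72 h. *Rbx1* and *Cul3*, subunits of the ligase that KLHL24 joins, fell by 1.55 ± 0.27 and 1.22 ± 0.33 at WT 144 h, and in deposited TPM *Rbx1* passed (-0.52 ± 0.08) and *Cul3* did not (-0.20 ± 0.16). At WT 144 h 50.5% of all genes were called lower, and these falls stand beside that share.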

How the data were processed

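The authors used cutadapt 2.4 for trimming, STAR 2.7.3a for alignment to mm10 and StringTie 2.0 for gene levels (names and versions from the submitters' processing notes). The study's methods give other versions of STAR and StringTie. The deposited values are TPM, which sum to 1000000 in each library, without ERCC entries. TPM keep no read counts, so depth is unknown and no counting error can be given. TPM were summed per gene identifier and multiplied by a factor per library, the median ratio of the study's spike-in normalized table, of which only the first part was used here, to the deposited TPM. Every factor equals 76 divided by a whole number from 27 to 76 (76 over the factor is whole within 0.01), as rounded values would, and its error is not known. Genes whose spike-in normalized TPM averaged 1 or more were fitted on log2(TPM + 1) in limma 3.58.1 (R 4.3.3, empirical Bayes with trend), all 7 groups together, with Benjamini-Hochberg adjustment over 18232 genes and calls at an adjusted p under 0.05. The script was tested on simulated data. Tables were made in Python 3.11.15.

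The members, lists and tests were chosen with earlier results of these data known. Named are the 10 members, for each list the up to 2 called genes with the largest rise and the up to 2 with the largest fall at WT 144 h and at DKO 72 h, and the 3 genes most like *Klhl24* and *Crebrf*. Replicates are separate samples by their labels. The p-values rest on the spread between replicates pooled over all 7 groups and moderated across genes, and not on the groups compared alone. The study states that time points of a replicate were processed in parallel. Replicate differences of the time points correlated across genes at over 0.1 in 3 of 3 pairs within DKO and 5 of 6 within WT (0.0622 to 0.398), and below 0 in 10 of 12 pairs between genotypes. The numbers were therefore taken as pairs within a genotype in alternative fits, the source of the replicate block. The main fit held no replicate block. Alternatives were the deposited TPM, centring on the median, another pseudocount, filter and trend, blocks, fits of only the groups compared, and leaving out each replicate.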

Additional observations from a re-analysis of the deposited data

How the results depend on the processing

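Depth sets no limit that can be stated for TPM, and 2 replicates per group limit every call. Beside each count of members called stands the share of all genes called in either direction under the same setting. In DKO at 24 h, 4 members were called (19.2%), and 7 in deposited TPM (24.9%), 7 with values centred on the median of all genes (27.7%), 9 in deposited TPM with a replicate block within each genotype (31.9%), and 0 when only the groups compared were fitted (2.91%), which leaves 2 residual degrees of freedom. At DKO 72 h, 2 were called (3.66%), and 9 in deposited TPM (26.3%), 9 centred on the median (28.1%), 6 with the replicate block (18.5%) and 9 with block and deposited TPM (35.8%). In WT nothing is read from the counts, which hold *Klhl24* and *Crebrf* by their choice. There 4 were called at each time (9.98%, 8.29% and 50.9%). In deposited TPM, centred on the median, with the block, and with block and deposited TPM these were 8, 8, 7 and 8 at 24 h (29.9%, 30.7%, 30.2% and 37.1%) and 9, 8, 7 and 10 at 72 h (24.0%, 26.2%, 28.3% and 32.0%). At 144 h they were 9 in deposited TPM (27.3%), 8 centred on the median (28.9%) and 9 with block and deposited TPM (35.5%). Without the filter 2 were called at WT 72 h (1.87%). DKO against WT gave 1 call at 24 h when centred on the median (1.20%) and 1 at 72 h in deposited TPM (4.01%). For this comparison a block within each genotype could not be fitted, and a block over all libraries gave 0 calls at each time (0.00548%, 0.0384% and 0.296%). The replicate block changed the call of no member at DKO 24 h. The block joined with deposited TPM was chosen after seeing the data. Leaving out a replicate gave 0 to 2 calls at WT 72 h (0.367% to 2.54%), 1 to 3 at WT 144 h (21.6% to 35.0%), 2 to 4 at DKO 24 h (4.43% to 48.0%) and 1 to 2 at DKO 72 h (0.505% to 2.10%), so that the shares of all genes moved as well. Except where stated, the cause of a change was not tested.

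Some values that did not pass also changed sign. At DKO 24 h *Foxo1* was 0.42 in deposited TPM (also with the block) and 0.35 centred on the median, and *Igf1r* was 0.48 (also with the block) and 0.41. For DKO against WT, *Klhl24* was -0.10 and -0.13 at 0 h and -0.31 and -0.41 at 72 h, and *Crebrf* was -0.34 and -0.45 at 72 h, in deposited TPM and centred on the median in turn, and *Crebrf* was 3.3e-05 at 0 h with a pseudocount of 0.1. Leaving out a replicate at DKO 24 h gave -0.37 to 0.16 for *Foxo1*, -0.26 to 0.64 for *Foxo3*, -0.25 to 0.82 for *Insr*, -0.38 to 0.29 for *Igf1r* and -0.26 to 0.43 for *Pik3ip1*, and at DKO 72 h -0.033 to 0.47 for *Foxo1*. For DKO against WT at 0, 24 and 72 h it gave -0.044 to 0.40, -0.70 to 0.079 and -0.15 to 0.35 for *Klhl24* and -0.18 to 0.18, -0.63 to 0.034 and -0.17 to 0.28 for *Crebrf*.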
